A study of Mus musculus with 6 samples.

Results

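The extracellular matrix genes described here are the collagen chains, the laminin chains and 11 named matrix glycoproteins and proteoglycans (fibronectin, tenascin C, Sparc, periostin, biglycan, both nidogens, perlecan, agrin and thrombospondins 1 and 2) in NMuMG cells. NMuMG is an epithelial line derived from the mammary gland of healthy mice. The genes were chosen by symbol, and their normalised read count had to average 10 or more across the 6 libraries. Of 44 matching symbols in the table of 14526 genes, 36 met that level, and these 36 are among the 12568 genes tested. They are 19 collagen chains, 8 laminin chains, 4 basement membrane linkers and 5 interstitial or matricellular proteins.

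RNA was sequenced from 6 samples, all NMuMG cells taken on day 4 of TGF-beta. The siMnt group (n = 3) received small interfering RNA against Mnt, a repressor that pairs with Max on E-box DNA, and the siNTC group (n = 3) received a non-targeting one. TGF-beta and siRNA were added together 16 hours after plating and again on day 2. TGF-beta was thus common to both groups, and cells without it were not analysed here. The comparison asks what lowering Mnt does to gene expression in TGF-beta-treated cells.

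Reads recovered from the normalised values of the listed genes summed to between 22323050 and 42193292 per library, the highest in siNTC replicate 3. Mnt itself, at 1316, 896 and 1596 in siNTC replicates 1, 2 and 3, was at 613, 557 and 749 in siMnt. The knockdown was thus partial, with 50.4% of the control mean left, and it lay just outside the threshold (adjusted p = 0.0546 by limma; 0.00442 with the replicate number as a block). Of 12 epithelial markers 9 were in the table, and their summed level was 119350 to 147609 in siNTC and 130027 to 141563 in siMnt, led by Krt18 and Krt8. 0 of the 9 passed without the block, and 2 passed with it: claudin 4 (Cldn4) fell from 278 ± 204 to 82.4 ± 18.3 (adjusted p = 0.198, or 0.0254 with the block) and E-cadherin (Cdh1) rose from 7543 ± 2429 to 10572 ± 730 (0.179, or 0.0474 with the block). In 60.3% of all tested genes siNTC replicate 3 lay closer to the siMnt mean than to the mean of the other controls. The same held for 22 of the 36 matrix genes (61.1%). This share was not computed for the other controls. Over all genes replicate 3 was not the odd control. The mean chi-square per gene (lower is closer) was 74.8 for siNTC replicates 1 and 3, 92.4 for 1 and 2, and 176 for 2 and 3. For some of the genes below the adjusted p is also given without siNTC replicate 3. That library was picked after the values were seen. Where it lay between the groups, leaving it out widens their difference by construction. In each of the genes so shown, leaving out any other single library gave a higher adjusted p by limma, above 0.05. For Nid2 it was 3.6e-04 without siNTC replicate 3 and between 0.173 and 0.285 without any other library.

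Epithelial cells rest on a basement membrane, a sheet in which laminin trimers and collagen IV form separate networks that nidogens, perlecan and agrin tie together. Each laminin holds 1 alpha, 1 beta and 1 gamma chain, and each collagen molecule holds 3 chains, so the chains a cell makes set which molecules it can assemble. Fibronectin, tenascin C and collagens I, V and XII belong to the interstitial matrix. In the epithelial to mesenchymal transition that TGF-beta drives in these cells fibronectin is among its best known induced products.

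Promoters are shown for the genes on which the results turn: Tnc, the member with the smallest adjusted p; Col4a4, which lies next to Col4a3 in the opposite direction and fell with it; and the neighbours Col6a1 and Col6a2. Each is the 250 bases before a transcription start in RefSeq (GRCm38.p6), 5′ to 3′ on the gene's strand. Capitals mark 1 of 4 motifs searched on both strands: CACGTG, the E-box that Mnt and Max bind, TGANTCA (AP-1), TATAAA and GGGCGG (bound by Sp1). All but CACGTG were chosen after the values were seen, and no 2 matches overlap in these windows.
Tnc (chr4:64047016-64047265, minus strand): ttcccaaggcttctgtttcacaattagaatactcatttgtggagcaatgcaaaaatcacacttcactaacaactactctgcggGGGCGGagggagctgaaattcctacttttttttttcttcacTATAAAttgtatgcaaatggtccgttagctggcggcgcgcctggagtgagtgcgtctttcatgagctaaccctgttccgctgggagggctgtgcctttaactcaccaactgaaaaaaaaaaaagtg
Col4a4 (chr1:82586850-82587099, minus strand): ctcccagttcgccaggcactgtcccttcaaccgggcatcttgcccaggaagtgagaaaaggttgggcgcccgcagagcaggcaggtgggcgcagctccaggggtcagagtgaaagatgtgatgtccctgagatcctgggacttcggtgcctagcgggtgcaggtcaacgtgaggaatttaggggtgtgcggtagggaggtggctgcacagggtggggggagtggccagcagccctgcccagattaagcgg
Col6a1 (chr10:76726045-76726294, minus strand): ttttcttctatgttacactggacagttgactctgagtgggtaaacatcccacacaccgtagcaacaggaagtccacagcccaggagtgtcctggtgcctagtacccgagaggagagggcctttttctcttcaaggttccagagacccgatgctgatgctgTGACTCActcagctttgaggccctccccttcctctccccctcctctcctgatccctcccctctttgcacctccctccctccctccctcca
Col6a2 (chr10:76623405-76623654, minus strand): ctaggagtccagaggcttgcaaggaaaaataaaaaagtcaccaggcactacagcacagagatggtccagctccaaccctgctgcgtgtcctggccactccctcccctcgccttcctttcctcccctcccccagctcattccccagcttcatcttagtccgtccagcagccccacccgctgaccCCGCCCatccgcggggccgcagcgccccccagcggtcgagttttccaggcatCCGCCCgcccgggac
On either strand, Tnc holds TATAAA at -126 and GGGCGG at -167 from this start, and Col6a1 holds TGANTCA at -90. Col6a2 holds GGGCGG on the opposite strand at -67 and -15 from this start, and the Col4a4 window holds none of the motifs. Tnc and Col6a2 each have another RefSeq start whose window is not printed. From it TATAAA and GGGCGG of Tnc lie at -205 and -246, and Col6a2 holds GGGCGG at -175.

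Promoter windows were at hand for 24 of the 36 genes. CACGTG was found in 0 of the 24, against 9.74% of the 9926 tested genes with a window. GGGCGG was in 16 of 24 (66.7%, against 63.3%), TATAAA in 2, Col11a2 and Tnc (8.33%, against 8.16%), and TGANTCA in 1, Col6a1 (4.17%, against 6.09%). These are matches of letters in a short window, not binding.

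In siMnt cells 4 of the 36 matrix genes fell and 0 rose at an adjusted p under 0.05 (limma on log2(value + 1), adjusted over all tested genes). This is 11.1% of them, against 3.93% of all tested genes (2.56% higher and 1.37% lower). The 4 were tenascin C (Tnc), the collagen IV chains Col4a3 and Col4a4, and Col12a1. With the replicate number as a block 15 of the 36 passed, 6 higher and 9 lower, against 15.9% of all tested genes (9.33% higher and 6.56% lower). The 6 that rose under the block were Col6a1, Col6a2, Col6a3, Col4a5, Lamb2 and Nid2, and the 5 further ones that fell were Fn1, Sparc, Col7a1, Col4a1 and Lamb3. The genes therefore did not move as 1 group: 20 had a positive and 16 a negative log2 fold change, with a median of 0.10 (-0.01 over all tested genes) that was -0.04 once GC content and length of the transcripts were corrected for and -0.04 without siNTC replicate 2. The unadjusted p (limma, no block) was under 0.05 for 15 of the 36, against 2938 of the 12568 tested genes. With the count tests on recovered reads, edgeR also called 4 lower and 0 higher, against 3.54% of all tested genes (2.29% higher and 1.25% lower). DESeq2 called 11, 3 higher and 8 lower, against 11.6% (6.71% higher and 4.89% lower).

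**Figure D1:**
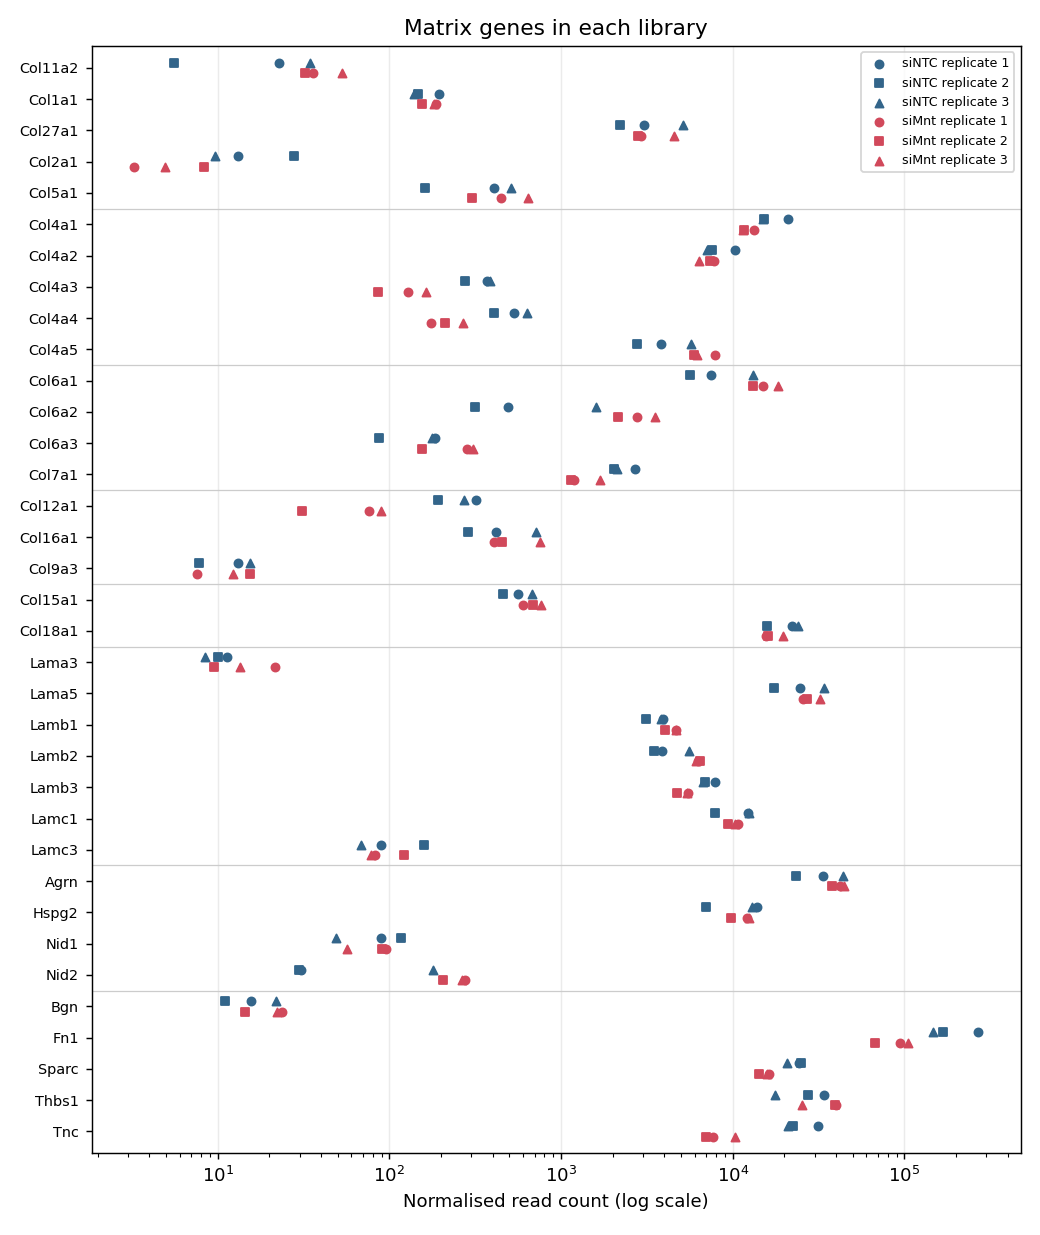
Normalised read count of 35 of the 36 matrix genes (log axis) in the 3 siNTC libraries (blue) and the 3 siMnt libraries (red), with the marker shape giving the replicate number and grey lines parting the classes. Tnc, Col4a3, Col4a4 and Col12a1 show red points wholly to the left of blue, and Col6a2 and Nid2 show siNTC replicate 3 (blue triangle) far to the right of the other controls.

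In 16 of the 36 the 3 siMnt libraries did not overlap the 3 siNTC libraries (44.4%, against 31.5% of tested genes), 6 with siMnt above (15.6% of tested genes) and 10 with siMnt below (15.9%). Control libraries were the more variable: the coefficient of variation was higher in siNTC than in siMnt for 31 of 36 genes (86.1%, against 79.1% of tested genes), with medians of 31.1% and 21.3%. An exact permutation test of 3 against 3 libraries cannot give a two-sided p under 0.1, so single genes rest on the fit across all genes. In bulk RNA fewer cells making a transcript and less transcript per cell cannot be told apart.

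The calls depended on single libraries. Without siNTC replicate 3, 13 matrix genes passed by limma, 5 higher and 8 lower, the 4 named above among them, against 16.0% of all tested genes (9.51% higher and 6.5% lower). Without siNTC replicate 2 or siMnt replicate 3, Tnc, Col4a3 and Col4a4 passed and Col12a1 did not (adjusted p = 0.0542 and 0.0511). Of all tested genes 1.73% (0.621% lower) and 0.995% (0.366% lower) passed in these fits. When replicate 1 of either group, or siMnt replicate 2, was left out, limma called 0 of the 36 and 0 of all tested genes. The unadjusted p (limma) of 13 (siNTC 1), 13 (siMnt 1) and 16 (siMnt 2) of the 36 was then under 0.05. Of all tested genes it was that of 2193, 1816 and 1920, in the same order. Among the 36 edgeR called 0 and DESeq2 called 6, all lower, each time. DESeq2 called 5.65%, 3.56% and 4.41% of all tested genes in these 3 settings, and 2.06%, 1.3% and 1.76% as lower.

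**Figure D2:**
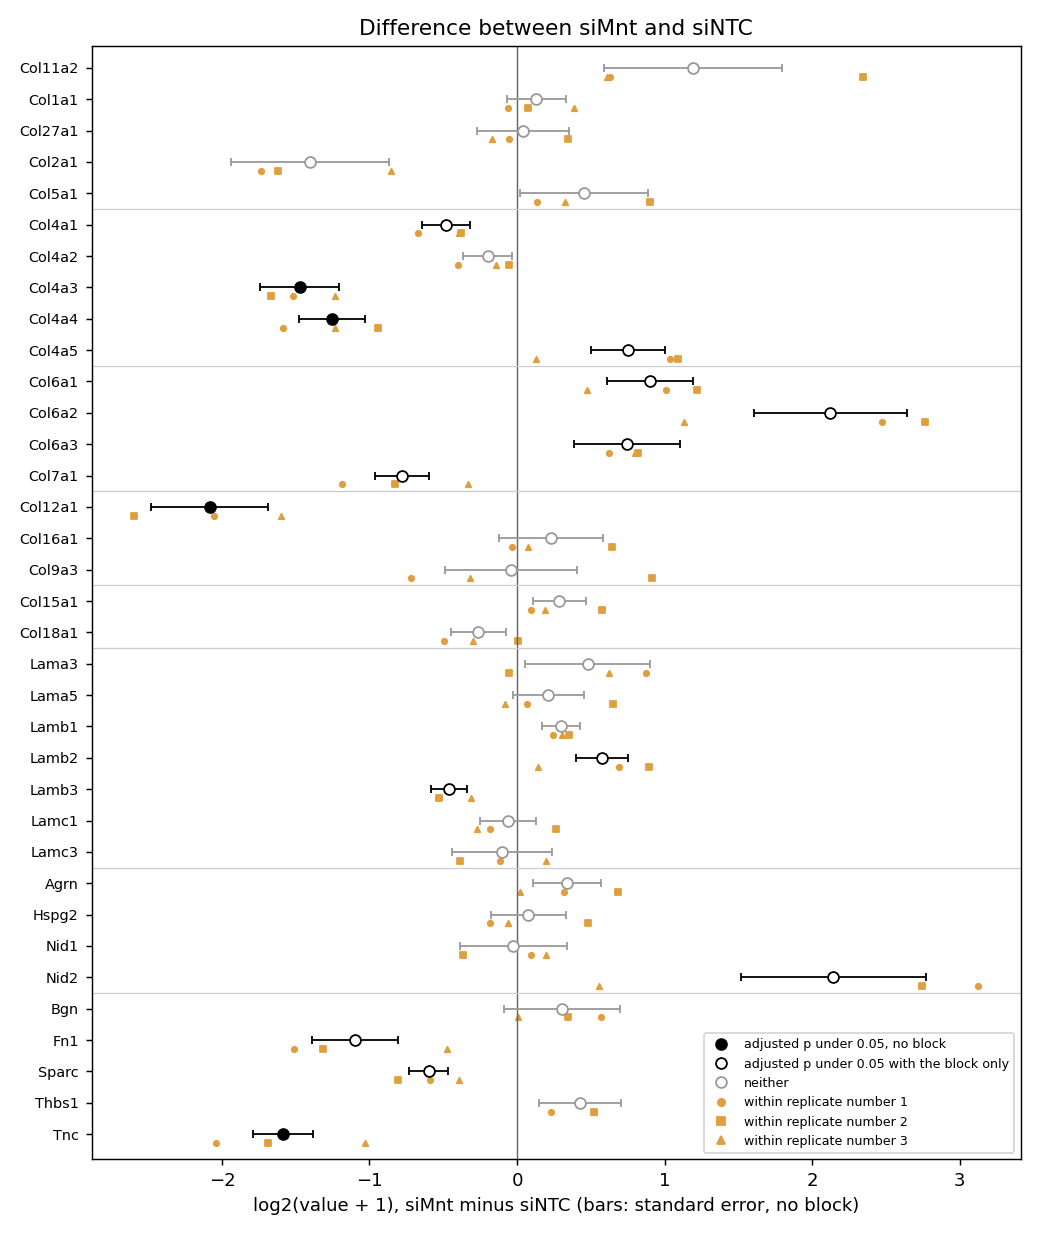
Log2 fold change of siMnt over siNTC, from log2(value + 1), for 35 of the 36 matrix genes, with the standard error of the fit without the block (bars) and the difference within each replicate number (small orange markers). Filled circles passed without the block (4 genes), open black circles passed with the block alone (11 genes), and grey circles passed in neither.

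Among the interstitial and matricellular glycoproteins 1 of 5 fell and 2 more fell under the block. Tenascin C, a hexameric glycoprotein that loosens cell adhesion and is made in remodelling tissue, was at 31401, 22397 and 21000 in siNTC and at 7653, 6963 and 10272 in siMnt. The highest siMnt library thus lay far under the lowest control. Its log2 fold change was -1.58 ± 0.20 (SE; adjusted p = 0.0163, limma), and within replicate numbers 1, 2 and 3 the siMnt level was 24.4%, 31.1% and 48.9% of siNTC.

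Fibronectin (Fn1), the dimeric glycoprotein that integrins assemble into fibrils, was the most abundant of these transcripts. It was at 269132, 167310 and 145991 in siNTC and at 94444, 67382 and 105256 in siMnt, groups that did not overlap. Its log2 fold change of -1.10 ± 0.29 did not pass without the block (adjusted p = 0.0734) and passed with it (0.0208), and without siNTC replicate 3 (0.0181). Fibronectin alone took 0.699% ± 0.221 (SD, n = 3) of all normalised counts in siNTC and 0.326% ± 0.067 in siMnt. The 36 genes together took 1.57% ± 0.285 and 1.20% ± 0.0915. Apart from fibronectin the share was 0.875% ± 0.124 and 0.873% ± 0.0247, so the net difference in the sum was that of this 1 gene. The other genes differed in both directions within that share. Tnc, for example, was lower (mean 24933 in siNTC and 8296 in siMnt) and Col6a1 higher (8730 and 15431).

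Sparc, a calcium-binding matricellular protein that binds collagen, was at 24441, 25010 and 20690 in siNTC and at 16206, 14269 and 15717 in siMnt. The groups did not overlap, and the difference was small and even (log2 fold change -0.60 ± 0.13), just outside the threshold without the block (adjusted p = 0.0509) and inside it with the block (0.0204). Thrombospondin 1 (Thbs1), a trimeric glycoprotein that can activate latent TGF-beta, was at 34189, 27298 and 17614 in siNTC and 40015, 39279 and 25324 in siMnt. It was higher in siMnt within each replicate number (117%, 143.9% and 143.8%), but the groups overlapped and neither fit passed (adjusted p = 0.395; 0.0687 with the block). Biglycan (Bgn), a small leucine-rich proteoglycan, was near the lower limit at 16.3 ± 5.46 and 20.1 ± 5.04 and did not pass.

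Of the 5 tested collagen IV chains 2 fell, Col4a3 and Col4a4, and Col4a5 went the other way under the block. The forms of collagen IV include alpha1-alpha1-alpha2, the common form, and alpha3-alpha4-alpha5, the form of the kidney glomerulus, lung and other specialised basement membranes. Col4a3 was at 371, 275 and 388 in siNTC and at 129, 85.9 and 164 in siMnt (log2 fold change -1.47 ± 0.27, adjusted p = 0.0313). Col4a4 was at 528, 405 and 632 and at 175, 210.0 and 268 (log2 fold change -1.26 ± 0.22, adjusted p = 0.0313). For both genes all siMnt libraries lay under all controls, and siMnt was between 31.3% and 51.8% of siNTC within each replicate number.

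Col4a5, which encodes the third chain of that form and lies on the X chromosome away from the other pair, was at 3839, 2779 and 5698 in siNTC and at 7893, 5924 and 6215 in siMnt. The groups did not overlap, although within replicate number 3 siMnt was only 109% of siNTC. Its log2 fold change of 0.75 ± 0.25 passed with the block (adjusted p = 0.0272) and not without it (0.123, or 0.0102 when siNTC replicate 3 was left out). Per transcript length Col4a5 stood 13.5, 13.2 and 19.2 times above Col4a3 in siNTC and 80.3, 90.3 and 49.5 times in siMnt. Against Col4a4 the ratio was 11.9 ± 1.77 in siNTC and 49.7 ± 17.7 in siMnt (SD, n = 3). Both ratios were higher in all siMnt libraries than in any control. They were set up with the single values known, and they have no test of their own.

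The common chains Col4a1 and Col4a2, also divergent neighbours, were far more abundant. Col4a1 was at 21081, 15245 and 14983 in siNTC and at 13237, 11694 and 11404 in siMnt, with siMnt below in every library. Its log2 fold change of -0.48 ± 0.16 passed with the block alone (adjusted p = 0.13, or 0.032 with the block). Without siNTC replicate 3 it did not pass (0.0556). Col4a2 was at 10292, 7592 and 7050 and at 7816, 7326 and 6378, with overlap and no call in either fit (adjusted p = 0.512; 0.265 with the block). The ratio of Col4a1 to Col4a2 per length was 2.00, 1.96 and 2.07 in siNTC and 1.65, 1.56 and 1.74 in siMnt. It is a ratio of RNA with no test of its own, and the chains in the protein trimer were not measured. In RefSeq the models of Col4a1 and Col4a2, and those of Col4a3 and Col4a4, overlap at the ends where they start, and as the strand of the counting is not given, reads from that stretch cannot be told apart.

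**Figure D3:**
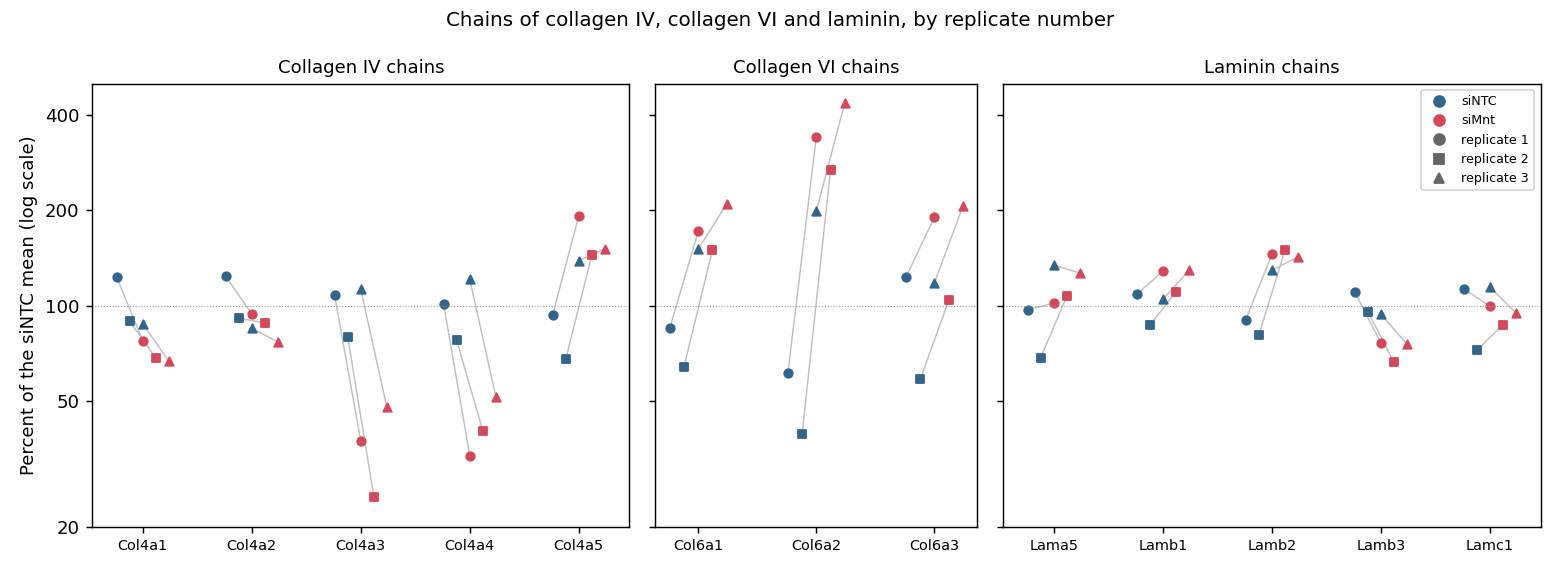
Level of the collagen IV chains, the collagen VI chains and 5 laminin chains as a percent of its siNTC mean (log axis), with a grey line joining the siNTC (blue) and siMnt (red) library of the same replicate number. Col4a3 and Col4a4 drop on all 3 lines while Col4a5 goes up, the 3 collagen VI chains go up on every line, and of the laminin chains shown Lamb3 alone drops on all 3.

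All 3 tested collagen VI chains rose under the block and 0 passed without it, where Col6a1 and Col6a2 had unadjusted p-values under 0.05, DESeq2 called Col6a1 and edgeR called 0. Collagen VI is a beaded microfibril that sits between basement membranes and the interstitial matrix and is built from alpha1, alpha2 and a longer chain such as alpha3. Col6a2 was at 493.5, 317 and 1600 in siNTC and at 2749, 2157 and 3501 in siMnt. Col6a1 was at 7428, 5598 and 13164 and at 14975, 13044 and 18272. For both genes siNTC replicate 3 lay well above the other controls, and for Col6a1 it overlapped siMnt.

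The log2 fold change of Col6a2 was 2.12 ± 0.52 (adjusted p = 0.0635, 0.0038 with the block and 6.5e-04 without siNTC replicate 3). After the GC and length correction it passed without the block (0.0451). The log2 fold change of Col6a1 was 0.90 ± 0.29 (adjusted p = 0.119, 0.00888 with the block and 0.00452 without siNTC replicate 3). Within replicate numbers 1, 2 and 3 Col6a2 in siMnt was 557%, 681% and 219% of siNTC, so the size of the difference in the third pair was smaller. Col6a3, at 149 ± 53.7 and 249 ± 82.1, was 154%, 177% and 174% of siNTC within the pairs. It passed with the block (adjusted p = 0.257, or 0.0198 with the block) and did not pass without siNTC replicate 3 (0.15). Per length, Col6a1 exceeded Col6a2 by 18.03, 21.2 and 9.86 times in siNTC and by 6.53, 7.24 and 6.25 times in siMnt, while its ratio to Col6a3 overlapped between the groups (147 ± 43.3 and 161 ± 40.8).

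Collagen VII (Col7a1), which forms the anchoring fibrils under epithelia, was at 2691, 2030 and 2129 in siNTC and at 1183, 1144 and 1690 in siMnt. The groups did not overlap, and the fall passed with the block (log2 fold change -0.78 ± 0.18; adjusted p = 0.0573, or 0.0148 with the block). Collagen XII (Col12a1), of the fibril-associated collagens that coat collagen I fibrils, fell: it was at 318, 193 and 273 in siNTC and at 75.7, 31.0 and 89.5 in siMnt. This was the largest fall among the 36 (log2 fold change -2.08 ± 0.40, adjusted p = 0.0356), at 16.1% to 32.7% of siNTC within the pairs. Of the same class, Col16a1 was at 415, 288 and 712.5 in siNTC and at 405.5, 451 and 751 in siMnt, and Col9a3 at 12.1 ± 3.97 and 11.8 ± 3.99, with 7 reads in its lowest library. Both overlapped between the groups and did not pass.

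Of the 5 tested fibrillar collagen chains 0 passed by limma in either fit, the unadjusted p of 1 (Col2a1) was under 0.05, and edgeR and DESeq2 called 0. Col27a1 was the most abundant, at 3022, 2200 and 5100 in siNTC and 2915, 2797 and 4527 in siMnt. Col5a1, whose chain sets fibril diameter, was at 405, 162 and 510.3 in siNTC and 445, 303 and 640 in siMnt, and Col1a1, the main chain of collagen I, was at 196, 147 and 140 and at 187, 155 and 183. In these 3 genes the groups overlapped. Col2a1 and Col11a2, chains of cartilage collagens, were near the lower limit, at 16.8 ± 9.56 and 5.50 ± 2.61 and at 20.8 ± 14.4 and 40.2 ± 10.96. Both multiplexins, whose C-terminal fragments include endostatin, did not pass: Col18a1 was at 20673 ± 4251 and 17064 ± 2157 (adjusted p = 0.433, but 0.0442 after the GC and length correction) and Col15a1 at 563 ± 108 and 682 ± 85.7.

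Of the 8 laminin chains 0 passed without the block, and under the block Lamb3 fell and Lamb2 rose. Both had an unadjusted p under 0.05 and were called by DESeq2, while edgeR called 0 of the 8. Lamb3, the beta chain of laminin-332, which anchors hemidesmosomes, was at 7905, 6859 and 6724 in siNTC and at 5454, 4743 and 5406 in siMnt. The groups did not overlap (log2 fold change -0.46 ± 0.12; adjusted p = 0.0732, or 0.0254 with the block). Lama3, the alpha chain of laminin-332, was listed at only 9.91 ± 1.48 and 14.9 ± 6.16.

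Lamb2, the beta chain of laminin-521, was at 3875, 3469 and 5560 in siNTC and at 6245, 6441 and 6139 in siMnt. It was higher in every siMnt library, though within replicate number 3 it was only 110.4% of siNTC (log2 fold change 0.57 ± 0.18; adjusted p = 0.103, 0.0336 with the block and 0.00526 without siNTC replicate 3). Lamb1, the beta chain of laminin-511, was at 3936, 3142 and 3798 and at 4656, 4007 and 4681, again with no overlap and 118%, 127.5% and 123% of siNTC within the pairs, and passed in neither fit (adjusted p = 0.22; 0.0784 with the block). Lama5, the alpha chain of both, was at 25335 ± 8348 and 28368 ± 3304, and Lamc1, their gamma chain, at 10818 ± 2593 and 10144 ± 682. Neither of these 2 passed, and the sign of each log2 fold change turned when a control library was left out. Lamc3 was at 106 ± 47.7 and 94.1 ± 23.98.

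Among the linkers of the basement membrane 0 of 4 passed without the block and nidogen 2 (Nid2) rose under it. Nid2 alone had an unadjusted p under 0.05 and a call by DESeq2, while edgeR called 0 of the 4. Nid2, a glycoprotein that bridges laminin and collagen IV, was at 30.6, 29.9 and 180.2 in siNTC and at 275, 206 and 266 in siMnt. siNTC replicate 3 lay much closer to the siMnt libraries than to the other controls. The log2 fold change was 2.14 ± 0.63 (adjusted p = 0.0912; 0.0143 with the block; 3.6e-04 without siNTC replicate 3), and within the pairs siMnt was 898%, 690% and 147.5% of siNTC. In RefSeq Nid2 overlaps Rtraf, and without strand the reads of such genes cannot be told apart.

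Nid1, its paralogue, was at 85.2 ± 34.3 and 80.7 ± 21.2. Agrin (Agrn), a heparan sulfate proteoglycan, was the second most abundant of the 36 by count, at 33722, 23435 and 44074 in siNTC and 42024, 37638 and 44620 in siMnt. Perlecan (Hspg2) was at 13774, 6987 and 13005 and at 12106, 9739 and 12471. In these 3 genes the groups overlapped and no fit on all 6 libraries passed.

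Compared per transcript length, fibronectin led in both groups, at 23349 ± 7915 normalised read counts per kb in siNTC and 10707 ± 2346 in siMnt, followed by Sparc, Thbs1 and Agrn in that order in both. Tnc stood at place 6 of 36 in siNTC and 10 in siMnt, and Col6a1 at place 9 and 5. Thbs1 and Agrn, neighbours in that order, did not differ beyond their spread in siNTC (4509 ± 1424 and 3918 ± 1198). Lama3 was last in siNTC and Col2a1 in siMnt.

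**Figure D4:**
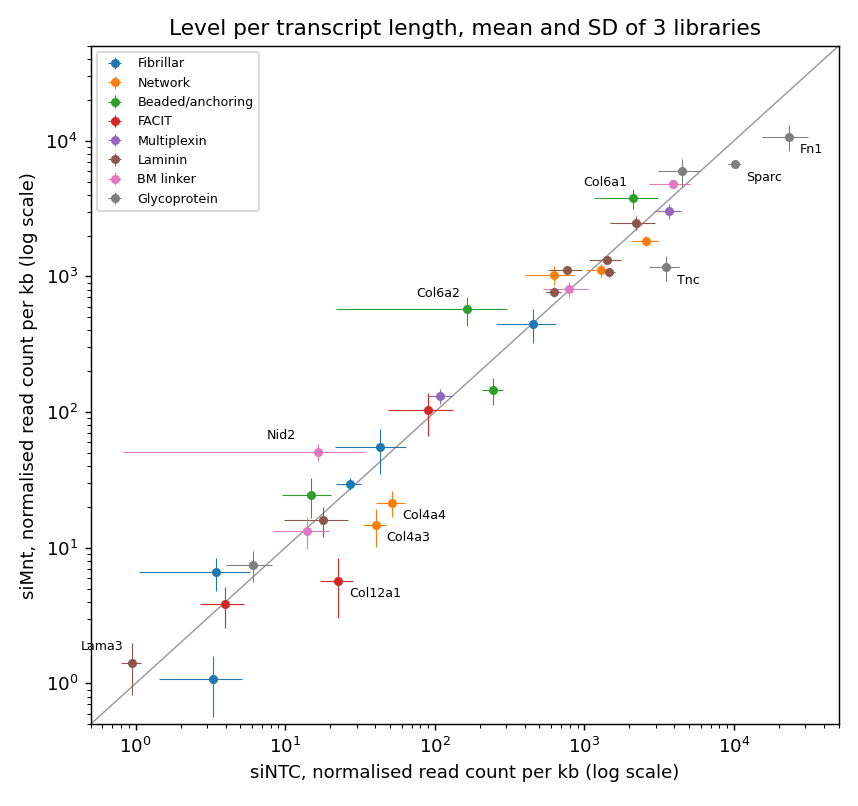
Normalised read count per kb of transcript in siNTC (x, log axis) and siMnt (y, log axis) for 35 of the 36 matrix genes, as mean and SD of 3 libraries, with the line of equality and colours for the classes. Fn1, Sparc, Tnc, Col4a3, Col4a4 and Col12a1 lie under the line and Col6a1, Col6a2 and Nid2 above it, where the lower SD bar of Nid2 stops short because its SD exceeds its mean.

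Of the 8 symbols below the level of 10, periostin (Postn), a matricellular protein, was at 13.97, 12.2 and 8.40 in siNTC and at 1.08, 0 and 0 in siMnt. With no filter on low values it passed (adjusted p = 0.0222, limma). Col14a1, with a mean of 7.74, was the highest left out and Col2a1, with 11.2, the lowest kept. Col17a1, Col5a2, Col5a3, Col8a1, Col20a1 and Lama2 had means between 2.34 and 7.28 and did not pass with no filter.

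Most tested genes that modify, fold, process or cross-link collagen did not pass. The shares below stand against 3.93% of all tested genes without the block (2.56% higher, 1.37% lower) and 15.9% with it. Of 16 tested genes of prolyl and lysyl hydroxylation and folding 2 rose (12.5%): P4ha2, a prolyl hydroxylase subunit, from 3520 ± 18.6 to 5426 ± 656 (adjusted p = 0.0384, limma), and the collagen chaperone Serpinh1, from 13.97, 7.75 and 3.23 to 78.9, 72.8 and 50.2. With the block 3 rose, the added gene being the prolyl 3-hydroxylase P3h2 (578 ± 150 and 896 ± 43.9; adjusted p = 0.0945, or 0.0293 with the block), named after its values were seen. Of 9 genes of procollagen export and processing 1 rose and 2 fell (33.3%). Bmp1, the procollagen C-proteinase, was at 7326 ± 1700 in siNTC and fell to 3351 ± 231 in siMnt (adjusted p = 0.0226). Its enhancers went opposite ways: Pcolce rose from 1701 ± 365 to 3788 ± 205 and Pcolce2 fell from 208.5 ± 84.2 to 55.0 ± 4.71. With the block 1 rose and 4 fell. Of 6 cross-linking genes 1 passed (16.7%), Loxl2, a lysyl oxidase that acts on collagen IV, which rose from 637 ± 81.6 to 2533 ± 830 (adjusted p = 0.0156). Under the block this list gave 1 higher and 2 lower.

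Of 24 other matrix glycoproteins and proteoglycans 2 rose and 4 fell (25%, against 3.93% of all tested genes), and with the block 6 rose and 7 fell. Fbln2, a fibulin that binds laminin, nidogen and fibronectin, was at 64147, 55003 and 44196 in siNTC and at 20553, 17732 and 24699 in siMnt (log2 fold change -1.37 ± 0.19, adjusted p = 0.0185). The thrombospondin Thbs3 fell from 2179 ± 56.5 to 1104 ± 163 and fibrillin 1 (Fbn1) from 204 ± 45.3 to 87.8 ± 6.47. The other called genes of that list, named after their values were seen, were Ltbp4, which fell, and Fras1 and Emilin2, which rose. Of 18 proteases and inhibitors 1 rose and 3 fell (22.2%), and with the block 2 rose and 5 fell. Without it the collagenase Mmp13 rose from 380.1 ± 239 to 1461 ± 183, and the gelatinases Mmp9 and Mmp2 fell with log2 fold changes of -3.89 and -2.14. Timp2, an inhibitor of these enzymes, named outside the rule after its value was seen, fell from 21639 ± 3625 to 12931 ± 684.

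Of 25 matrix receptors 0 passed by limma without the block, 0 by edgeR and 9 by DESeq2 (11.6% of all tested genes). The unadjusted p (limma, no block) of 12 was under 0.05, against 2938 of the 12568 tested genes. With the block 7 rose and 5 fell (48.0%, against 15.9% of tested genes).

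Markers of other cell types were mixed and, apart from Csf1r, low. Of 8 fibroblast markers 4 were in the table (Pdgfra, Pdgfrb, Dcn and Fbln1), none at 0 in any library, with a summed level of 302 to 309 in siNTC and 360.4 to 488 in siMnt, and 0 passed by limma (1, Pdgfrb, under the block). Of 7 endothelial markers 3 were in the table (79 to 107 and 78 to 86), and 1 of 2 tested rose, Esam. The other, Cdh5, was at 80.1 ± 16.4 in siNTC and 40.4 ± 7.81 in siMnt, all siMnt libraries lying below all controls, and fell under the block (adjusted p = 0.0836, or 0.0435 with the block). Of 9 myeloid markers 5 were in the table, with a sum of 963 to 1329 in siNTC and 2001 to 2300 in siMnt that was mostly Csf1r. Of the 3 tested, Csf1r and Itgam rose, Itgam on 4 to 26 reads per library (adjusted p = 0.0493, limma). The other, Cd68, was at 190.5 ± 67.8 in siNTC and 163.7 ± 45.8 in siMnt and did not pass (adjusted p = 0.765, limma). Ptprc, which defines blood cells, was between 1.29 and 6.65 in every library. Of 5 adipocyte markers Fabp4 and Cidec were in the table (11.4 to 38.1 and 62.5 to 90.7). Fabp4 rose, while Cidec was at 15.56 ± 13.15 in siNTC and 16.0 ± 3.06 in siMnt and did not pass (adjusted p = 0.778, limma). The part of such cells in the differences above was not tested.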

How the data were processed

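The authors deposited 1 table of normalised values, a signal that is never negative, for 14526 genes in 6 libraries. Build mm9, TopHat2 2.1.0 and DESeq2 are named in the submitters' processing notes; no source used here gives the counting tool, annotation, strand or filters. The deposited values are read counts scaled by a library-wide factor, since dividing by the step of each library gave whole reads, to within 0.05, for 99.7% of non-zero values.

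The 1958 genes averaging under 10 were left out. The other 12568 were fitted on log2(value + 1) with limma 3.58.1 in R 4.3.3 (empirical Bayes with a trend, all 6 libraries), with Benjamini-Hochberg adjustment over all of them and a threshold of 0.05. Values are mean ± SD over n = 3, fold changes carry the standard error, and the log2(value + 1) scale understates the change of low genes. Groups and replicate numbers come from the titles, which do not tell how replicates were grown. The p-values therefore cover the spread among these samples alone, which may be technical. Replicates were not copies (mean chi-square per gene of 14.5 or more).

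Same-numbered libraries deviated together across genes (correlations of 0.28, 0.50 and 0.35; other pairs -0.38 to 0.03), so a blocked fit on that number is given for the matrix genes and markers where it changes a call, and for the other lists as counts. This pairing comes from the data and the numbers in the titles, so the blocked calls are not independent of that choice. Deviations were taken from each group's own mean, so positive correlations for same-numbered libraries force those of the other pairs low or negative.

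Alternatives covered the pseudocount, the filter, the scaling, the trend, the threshold, the block and each library in turn, edgeR 4.0.16 and DESeq2 1.42.0 on recovered read counts, and a loess correction for GC content and transcript length. Lengths are those of the longest GENCODE M21 transcript per symbol (98.8% of tested genes, all 36 members), another build used only for this. Promoter sequences and gene neighbours are from RefSeq GRCm38.p6; the table gives no coordinates. Values of 1 member are not reported here, though it stays in every fit and count. The other members are described, with full values where it passed with or without the block, was among the 5 most abundant, or was among the 3 most abundant of its class, and up to 3 called genes of each other list are named. The members and lists were chosen with earlier results of these data known. The fit without the block was tested on simulated reads of independent libraries. Their spread was smaller than that of most matrix genes in siNTC, and same-numbered libraries shared no deviation. That test therefore cannot show how either fit behaves on these libraries. Python 3.11.15, pandas 2.3.3 and matplotlib 3.10.9 prepared tables and figures.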

Additional observations from a re-analysis of the deposited data

How the results depend on the processing

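Counts are small and follow single libraries and the block more than the scale or filter. With the replicate number as a block 1998 of all genes and 15 matrix genes passed (edgeR with the block, added after seeing the data, 1945 and 15). All genes gave 322 with a minimum mean of 50, 306 with no trend, 1457 by DESeq2, 963 after the GC and length correction, 2337 with that correction and the block, and 1336 at a threshold of 0.1. Matrix genes gave 11 by DESeq2, 10 after the GC and length correction, 17 with the correction and the block, and 10 at a threshold of 0.1. Without the block, the correction added to Tnc, Col4a3, Col4a4 and Col12a1 the following genes by limma. Fn1 (adjusted p = 0.0379), Sparc (0.0311), Col7a1 (0.032), Lamb3 (0.0369) and Col18a1 (0.0442) were lower, and Col6a2 (0.0451) was higher. The correction bears on these genes, whose median GC content was 56.0% and transcript length 6070 bases, against 49.7% and 3336. 

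Hydroxylation and folding gave 1 with a minimum mean of 50 or no trend, 4 by DESeq2 and 5 with the correction and the block. Export and processing gave 5 with the block, with edgeR and the block, and with the correction and the block. Cross-linking gave 3 with the block or DESeq2, and 2 with the correction and the block, a threshold of 0.1, or edgeR with the block. Receptors gave 1 with no trend or the correction, 12 with the block, 12 by edgeR with the block, 9 by DESeq2, 13 with the correction and the block, and 8 at 0.1. Other glycoproteins gave 3 with a minimum mean of 50, 13 with the block, with edgeR and the block, and with the correction and the block, 10 by DESeq2, and 11 at 0.1. Proteases gave 2 with no trend, and 7 with the block, by DESeq2, and by edgeR with the block.

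With 1 library left out, by limma, edgeR and DESeq2 together, counts ranged from 0 to 2747 for all genes, 0 to 15 for matrix genes, 0 to 5 for hydroxylation, 0 to 5 for export, 0 to 3 for cross-linking, 0 to 11 for receptors, 0 to 13 for other glycoproteins and 0 to 11 for proteases, and the median of the matrix genes from -0.04 to 0.20. Without siNTC replicate 3 all genes gave 2012 by limma, 2007 by edgeR and 2747 by DESeq2, and matrix genes 13, 14 and 15. Without siNTC replicate 2 all genes gave 217, 215 and 1456, and without siMnt replicate 3 they gave 125, 114 and 902. The cause of these shifts was not tested.

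The sign turned for some members that passed in neither fit: Hspg2 (-0.15 with the correction, with or without the block) and Col27a1 (-0.004 by edgeR, -0.005 by DESeq2, -0.11 with the correction, with or without the block). With 1 library left out by limma the log2 fold changes ran from -0.035 to 0.450 for Lama5, -0.235 to 0.254 for Hspg2, -0.282 to 0.049 for Lamc1, -0.238 to 0.369 for Col27a1, -0.075 to 0.577 for Col16a1, -0.041 to 0.785 for Col5a1, -0.307 to 0.223 for Col9a3, -0.37 to 0.25 for Nid1 and -0.37 to 0.24 for Lamc3.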
